A study of Mus musculus with 16 samples.

Results

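The genes described here are 37 members of glucose handling in the heart: the transporters that bring glucose into the cell, the enzymes of glycolysis and their PFK-2 regulators, the proteins that make and move lactate, the pyruvate dehydrogenase kinases, and the enzymes that store and release glycogen. They were chosen by name, as the Ensembl entries of the deposited count table that map to the listed mouse symbols. All 37 were found among the 37991 genes of the table, and all 37 passed the filter on low counts in each comparison.

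RNA was sequenced from both ventricles, left and right, of 8 mouse embryos on the C57BL/6 background, giving 16 libraries. The 3 embryos with hypoplastic left heart syndrome (HLHS), a malformation in which the left ventricle stays small, were 1 each of E13.5, E14.5 and E17.5 (E for embryonic day). Their 5 control littermates were 1 of E13.5, 2 of E14.5 and 2 of E17.5. The labels give the phenotype and no genotype or treatment, so the control embryos are known only as littermates without the HLHS phenotype. Each stage is 1 litter, so stage and litter cannot be told apart, and each stage has 1 HLHS embryo. The titles of the E14.5 litter carry a different prefix from those of the other litters, and what lies behind it cannot be told apart from stage either.

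Glucose enters heart cells through transporters of the Slc2a family, is trapped as glucose 6-phosphate by hexokinase, and is then either broken down to pyruvate by glycolysis or stored as glycogen. Pyruvate becomes lactate, or enters the mitochondrion unless pyruvate dehydrogenase kinases hold the gate enzyme off. Many of these steps are served by sister isozymes: one form is typical of striated muscle (Slc2a4, Pfkm, Pgam2, Eno3, Pygm) or of the oxidative heart (Ldhb), and another is found in most cells and in the young embryo (Slc2a1, Pfkl, Pgam1, Eno1, Ldha). The fetal heart relies largely on glucose and lactate, and several glycolytic genes are known targets of the hypoxia-inducible factors.

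Library totals ran from 17081273 to 28648645 counts, and the members took from 1.41% to 1.83% of them. Values below are TMM-normalised CPM, a gene's counts scaled to a common library size. Cardiomyocyte markers were abundant in every library, with a summed level from 20545 CPM to 34990 CPM over 10 genes, but Tnnc1, cardiac troponin C, was at or near 0 throughout (group means of 0 to 0.0694 CPM), and the cause was not tested. Skeletal muscle markers were at 0.970 to 3.38 CPM in the control left ventricles and 1.15 to 2.47 CPM in the HLHS left ventricles, with Myod1 and Myf5 at 0 there, and at 3.87 to 12.0 CPM and 1.55 to 13.7 CPM in the control and HLHS right ventricles. In these bulk samples, fewer cells of a type and less RNA per cell cannot be told apart.

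Per kilobase of exon, the most abundant members in the control ventricles were Aldoa, aldolase of the fourth glycolytic step, with a median level of 879 CPM per kb, followed by Ldha at 711, Pkm at 682 and Ldhb at 661. The ranges of these neighbours over the 10 control libraries overlapped. At the low end were the PFK-2 genes Pfkfb1 at 2.27 and Pfkfb4 at 1.72 CPM per kb and the neuronal enolase Eno2 at 2.20 CPM per kb. Gapdh, the dehydrogenase often used as a reference gene, stood at only 117 CPM per kb. Of the 50-base stretches of its transcripts, 58.4% also occur in other genes, 215 of them pseudogenes. The same share was 68.0% for Pgk1, 49.5% for Eno1, 41.5% for Pgam1, 25.0% for Pfkfb2, 24.5% for Gpi1, 23.7% for Pkm, 21.0% for Ldhb and 15.4% for Pfkp. The counts of these genes are uncertain, since the labels do not say how reads that fit several genes were counted. It was 0 for Slc2a3, Slc2a4, Slc16a3, Eno3, Pgam2 and Pdk1.

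In the left ventricle, the malformed side, members changed in both directions in HLHS. The 5 that were higher are the transporter Slc2a3, the lactate exporter Slc16a3, the platelet-type phosphofructokinase Pfkp, phosphoglycerate kinase Pgk1 and the pyruvate dehydrogenase kinase Pdk1. The 7 that were lower are the muscle enolase Eno3, the muscle glycogen phosphorylase Pygm, the heart-type lactate dehydrogenase Ldhb, the insulin-responsive transporter Slc2a4, the muscle phosphoglycerate mutase Pgam2, the muscle phosphofructokinase Pfkm and the cardiac PFK-2 enzyme Pfkfb2. By the quasi-likelihood test of edgeR, fitted with a stage term and read at an adjusted p under 0.05 across the table, these were 5 of 37 higher and 7 of 37 lower, beside 6.17% and 6.61% of the 15979 genes tested. The median log2 fold change of the 37 members was 0.12, beside 0.01 for all genes. Without the stage term, when differences between stages enter the spread, 0 members and 1 gene in all were called. The calls also rest on few embryos. Leaving out the E14.5 HLHS library or either E14.5 control library left 2 members higher, leaving out 1 of the E17.5 controls left 3, and leaving out the E17.5 HLHS library gave 11. Slc2a3, Pfkp, Eno3, Pygm, Ldhb, Pgam2 and Pfkm were called in 8 of 8 such fits.

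In the right ventricle 6 members were lower in HLHS and none was higher. The lower ones were Eno3, Pygm, the glycogen branching enzyme Gbe1, Pfkm, Slc2a4 and the glycogen synthase Gys1. By the same edgeR test this was 6 of 37, beside 3.05% of the 16142 genes tested. It called 0 of 37 higher, beside 3.56% of genes, with 2 members higher at an unadjusted p under 0.05 and 0 by DESeq2 and by limma-voom. The median log2 fold change of the 37 was -0.12, beside 0.01 for all genes. Without the stage term 0 members and 0 genes in all were called. Leaving out both E13.5 embryos left 0, as did leaving out the HLHS library of E13.5 or E17.5, the E13.5 control or 1 of the E17.5 controls. Leaving out the E14.5 HLHS library ended all 6 calls and gave 1 other, Pdk2 (adjusted p = 0.0480). Leaving out 1 of the E14.5 controls left 1, Pygm, leaving out the other E17.5 control left 3, and a term for sex left Pygm.

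**Figure D1:**
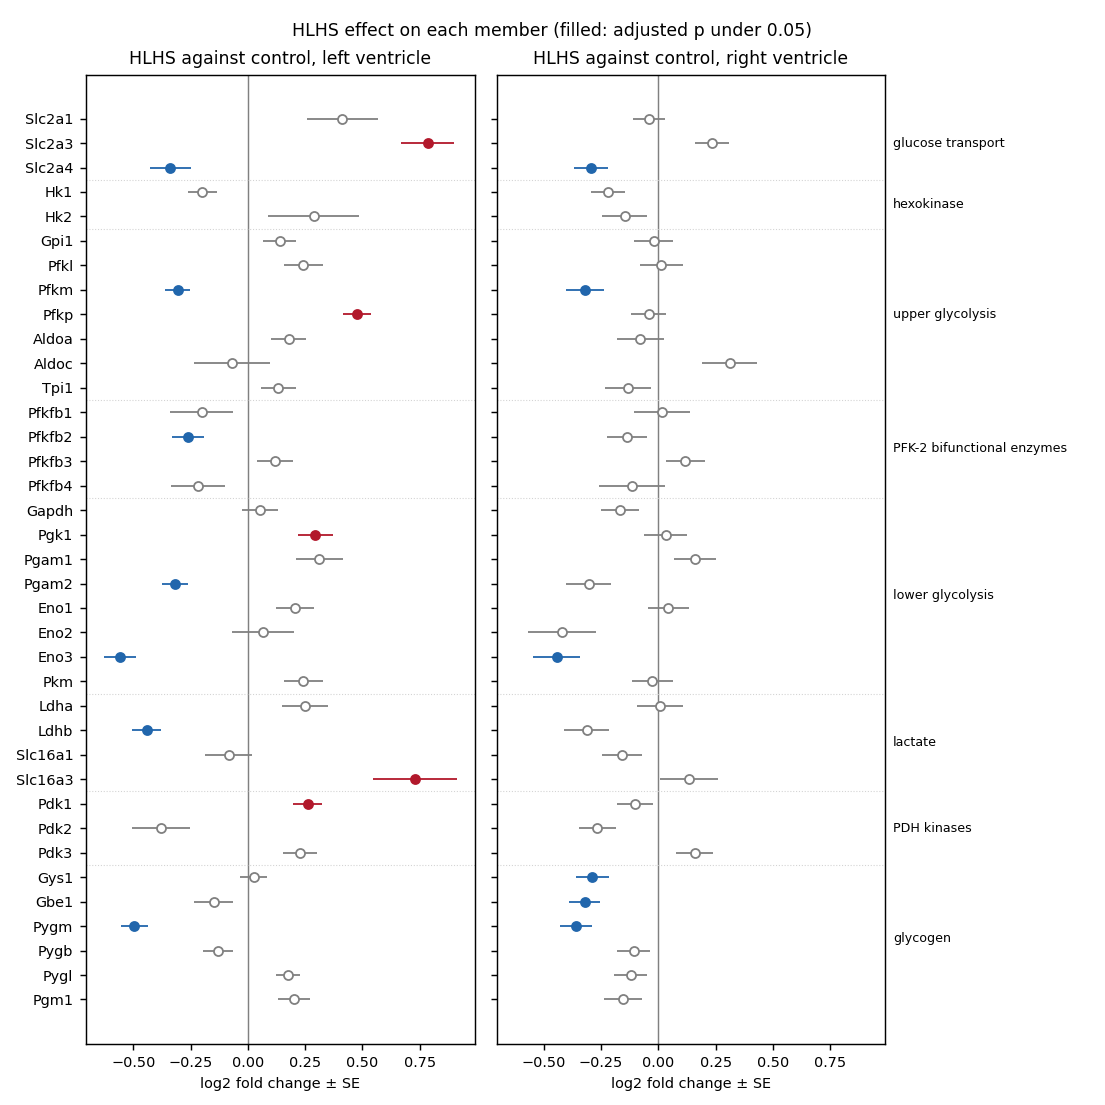
Log2 fold change of HLHS over control for each of the 37 members (rows, grouped by step), with its standard error as a bar, in the left and right ventricle; filled points passed an adjusted p under 0.05. In the left ventricle 5 members were higher and 7 lower, and in the right 0 were higher and 6 lower, with Slc2a3 at 0.79 as the highest left value.

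Other cell types moved with these groups. Of 11 erythroid markers tested, 10 were higher in the HLHS left ventricle, with a summed level of 755 to 1345 CPM, beside 470 to 830 CPM in the control left ventricles. In the right ventricle the sums were 562 to 819 CPM in HLHS and 488 to 779 CPM in controls. In the HLHS left ventricle 4 of 11 endothelial and 4 of 8 fibroblast markers were lower, the smooth muscle genes Tagln and Cnn1 were higher and Myh11 lower, the epicardial keratin Krt19 was higher (1 of 5 epicardial markers), and 4 of 9 immediate early and heat shock genes, which respond to handling, were higher. The summed endothelial level was 1146 to 1535 CPM in the HLHS left ventricles and 1486 to 1651 CPM in the control left ventricles. In the HLHS right ventricle 2 of 4 smooth muscle markers were higher, again Tagln and Cnn1, and 1 of 11 endothelial markers was lower, Cldn5. The smooth muscle sums there were 1406 to 1825 CPM, beside 1178 to 1497 CPM in controls. The 8 fibroblast markers had fold changes above 0 on the right without passing, with a median log2 value of 0.35 and sums of 5123 to 6916 CPM, beside 2913 to 5946 CPM. Of 9 cardiomyocyte markers tested, Tnni3 and Myh6 were lower in the left ventricle and Tnni3 in the right. On the right 0 of the 9 had a fold change above 0, with a median log2 value of -0.27, beside 0.01 for all genes. On the left 4 of the 9 were above 0, with a median of -0.01. The summed cardiomyocyte level was 22848 to 27840 CPM in the HLHS left ventricles, beside 20545 to 32282 CPM in controls, and 20828 to 28988 CPM in the HLHS right ventricles, beside 25201 to 34990 CPM. The part of these cells in the results on glucose genes was not tested. With the globin genes left out before normalisation, 5 members were still called higher and 7 lower in the left ventricle.

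Sequences upstream of the called genes are shown because the hypoxia-inducible factors, which act on many glycolytic genes, bind a short core. RefSeq promoters of build GRCm38.p6, running from 250 bases before to 50 bases after the transcription start, were found for 35 of the 37 members, with no entry for Slc2a3 and Slc2a4. They were searched for the core ACGTG or GCGTG on both strands, where CACGTG, read the same on both, would count once on each. Capitals mark each match, and CACGT and CACGC are matches on the opposite strand. The first 4 belong to the members that were higher in the HLHS left ventricle, Slc16a3 at chr11:120948817-120949116 on the plus strand, Pfkp at chr13:6648722-6649021 on the minus strand, Pgk1 at chrX:106186850-106187149 on the plus strand and Pdk1 at chr2:71872974-71873273 on the plus strand, and the last 2 to the most strongly lower, Eno3 at chr11:70656926-70657225 on the plus strand and Pygm at chr19:6384158-6384457 on the plus strand. Each is written 5′ to 3′ on the strand of its gene.
Slc16a3: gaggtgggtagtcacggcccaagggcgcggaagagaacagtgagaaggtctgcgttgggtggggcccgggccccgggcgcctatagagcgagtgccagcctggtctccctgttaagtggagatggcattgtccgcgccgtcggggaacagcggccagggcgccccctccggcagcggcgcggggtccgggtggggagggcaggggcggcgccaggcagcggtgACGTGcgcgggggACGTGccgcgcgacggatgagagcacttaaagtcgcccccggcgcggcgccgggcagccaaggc
Pfkp: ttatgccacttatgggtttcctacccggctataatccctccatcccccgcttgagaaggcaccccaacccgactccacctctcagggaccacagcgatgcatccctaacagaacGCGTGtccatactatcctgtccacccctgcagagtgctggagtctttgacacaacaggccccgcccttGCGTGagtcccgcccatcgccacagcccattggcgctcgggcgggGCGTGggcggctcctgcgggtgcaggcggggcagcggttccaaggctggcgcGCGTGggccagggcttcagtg
Pgk1: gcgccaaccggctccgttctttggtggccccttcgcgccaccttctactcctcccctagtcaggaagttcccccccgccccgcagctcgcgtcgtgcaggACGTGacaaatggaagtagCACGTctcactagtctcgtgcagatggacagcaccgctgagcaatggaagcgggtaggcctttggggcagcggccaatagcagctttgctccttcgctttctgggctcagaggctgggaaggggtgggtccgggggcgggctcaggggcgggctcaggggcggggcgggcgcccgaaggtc
Pdk1: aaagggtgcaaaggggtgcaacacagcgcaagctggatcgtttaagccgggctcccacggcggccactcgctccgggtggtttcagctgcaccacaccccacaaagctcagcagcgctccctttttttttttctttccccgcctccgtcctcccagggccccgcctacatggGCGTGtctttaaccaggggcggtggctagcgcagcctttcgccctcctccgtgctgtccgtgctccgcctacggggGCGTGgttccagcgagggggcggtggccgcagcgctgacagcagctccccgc
Eno3: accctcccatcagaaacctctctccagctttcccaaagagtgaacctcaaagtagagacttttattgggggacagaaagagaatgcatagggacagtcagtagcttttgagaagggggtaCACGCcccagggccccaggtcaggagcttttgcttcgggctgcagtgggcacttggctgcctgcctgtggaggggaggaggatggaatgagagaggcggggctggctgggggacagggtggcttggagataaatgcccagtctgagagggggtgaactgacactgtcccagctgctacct
Pygm: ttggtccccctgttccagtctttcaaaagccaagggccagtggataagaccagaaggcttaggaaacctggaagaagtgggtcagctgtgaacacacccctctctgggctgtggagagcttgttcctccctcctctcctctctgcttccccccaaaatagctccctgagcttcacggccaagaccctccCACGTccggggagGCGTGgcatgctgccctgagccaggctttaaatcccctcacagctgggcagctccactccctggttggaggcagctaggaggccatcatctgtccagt
The Pfkp window holds 4 matches, those of Slc16a3, Pgk1, Pdk1 and Pygm hold 2 each, and that of Eno3 holds 1. At least 1 match was present in 4 of 4 higher members with an entry, in 5 of 6 lower members and in 20 of 25 members that were not called. A member counted here if any of its entries held a match, while the shares that follow are of single entries. Among all 32851 RefSeq promoter entries, 43.8% hold a match, and among the 54 entries of the members 72.2% do. A match is a description of letters, not a binding site.

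Among the glucose transporters, Slc2a3, the high-affinity GLUT3, rose and Slc2a4, the insulin-responsive GLUT4 of muscle, fell in the HLHS left ventricle. Slc2a3 in the left ventricle was at 32.5 CPM in the E13.5 control, 22.3 and 27.2 in the E14.5 controls and 12.8 and 14.8 in the E17.5 controls, against 50.3, 52.6 and 20.4 CPM in the HLHS embryos of E13.5, E14.5 and E17.5. The HLHS library was above every control of its litter at each stage, and the level was lowest at E17.5 in both groups. Its left log2 fold change was 0.79 ± 0.11 (SE; adjusted p = 0.00378), or 1.72-fold. Right ventricles had 35.8 CPM in the E13.5 control, 28.4 and 31.7 in the E14.5 controls and 18.2 and 18.4 in the E17.5 controls, against 41.2, 34.4 and 22.6 CPM in the HLHS embryos of E13.5, E14.5 and E17.5. The HLHS libraries were again above each litter's controls, but the log2 fold change did not pass, at 0.23 ± 0.07 (SE; adjusted p = 0.0901).

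Slc2a4 went the other way on both sides. In the left ventricle it was at 71.4 CPM in the E13.5 control, 92.4 and 93.1 in the E14.5 controls and 123 and 117 in the E17.5 controls, against 63.2, 82.4 and 77.2 CPM in the HLHS embryos of E13.5, E14.5 and E17.5. The HLHS embryos were below their litter's controls at all 3 stages, and the gap was widest at E17.5, where the log2 difference was -0.64, beside -0.17 and -0.17 at E13.5 and E14.5. The log2 fold change was -0.34 ± 0.09 (SE; adjusted p = 0.0370) on the left and -0.29 ± 0.07 (SE; adjusted p = 0.0432) on the right. Without the E17.5 HLHS library the left value was -0.17 (adjusted p = 0.0729), and without any 1 of the 4 controls of E14.5 and E17.5 the adjusted p was 0.0570 to 0.0704. Right ventricles of HLHS embryos had 71.4, 79.1 and 86.5 CPM, below the 82.5 CPM of the E13.5 control, the 85.6 and 98.6 CPM of E14.5 and the 118 and 115 CPM of E17.5.

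Slc2a1, the GLUT1 transporter of most embryonic cells, did not pass the test on either side, and its 3 litters differed. Left ventricles had 229 CPM in the E13.5 control, 161 and 153 in the E14.5 controls and 113 and 120.2 in the E17.5 controls, against 288, 299 and 107 CPM in the HLHS embryos of E13.5, E14.5 and E17.5. The HLHS embryos were thus above their controls at E13.5 and E14.5 and slightly below at E17.5. The left log2 fold change was 0.41 ± 0.15 (SE; adjusted p = 0.112) and the right -0.04 ± 0.07 (SE; adjusted p = 0.783).

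Neither hexokinase passed the test over the 3 litters. Hk1, the mitochondria-bound form of most tissues, was, in the left ventricle, at 633 CPM in the E13.5 control, 544 and 509 in the E14.5 controls and 599 and 648 in the E17.5 controls, against 524, 485 and 533 CPM in the HLHS embryos of E13.5, E14.5 and E17.5. Each HLHS left ventricle lay below its litter's controls, with a log2 fold change of -0.20 ± 0.06 (SE; adjusted p = 0.0684), and the right value was -0.22 ± 0.07 (SE; adjusted p = 0.105). Hk1 was called lower on the left by DESeq2 (adjusted p = 0.0181) and limma-voom (adjusted p = 0.0441). By edgeR it was also called there without the count filter (0.0333) and with a sex term (0.04365). DESeq2 called it on the right (0.0327), and the other alternatives called it on neither side. Hk2, the inducible muscle form, was, on the left, at 163 CPM in the E13.5 control, 117 and 109 in the E14.5 controls and 180.5 and 194 in the E17.5 controls, against 243, 192 and 132 CPM in the HLHS embryos of E13.5, E14.5 and E17.5. It was above the controls at E13.5 and E14.5 and below them at E17.5, and its log2 fold change over the litters was 0.29 ± 0.20 (SE; adjusted p = 0.376) on the left and -0.15 ± 0.10 (SE; adjusted p = 0.413) on the right.

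Of the 7 upper glycolytic genes, from glucose phosphate isomerase to triose phosphate isomerase, the phosphofructokinases separated. Pfkp, the platelet form of this committing step, was, in the left ventricle, at 474 CPM in the E13.5 control, 347 and 343 in the E14.5 controls and 373 and 404 in the E17.5 controls, against 614, 516 and 529 CPM in the HLHS embryos of E13.5, E14.5 and E17.5. The 3 HLHS libraries were above all 5 controls, and the log2 fold change was 0.48 ± 0.06 (SE; adjusted p = 0.00238), or 1.39-fold. On the right, the HLHS levels of 446, 332 and 421 CPM lay inside the control range of 322 to 492 CPM, with a log2 fold change of -0.04 ± 0.08 (SE; adjusted p = 0.784).

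Pfkm, the muscle form, was lower on both sides. Left ventricles had 329.6 CPM in the E13.5 control, 355 and 351 in the E14.5 controls and 523 and 499 in the E17.5 controls, against 273, 276 and 419 CPM in the HLHS embryos of E13.5, E14.5 and E17.5. Right ventricles had 424 CPM in the E13.5 control, 369 and 419 in the E14.5 controls and 559 and 523 in the E17.5 controls, against 312, 351 and 416 CPM in the HLHS embryos of E13.5, E14.5 and E17.5. Each HLHS library was below the controls of its litter. The log2 fold change was -0.31 ± 0.06 (SE; adjusted p = 0.00890) on the left and -0.32 ± 0.08 (SE; adjusted p = 0.0486) on the right. Pfkl, the liver form, and the other upper genes Gpi1, Aldoa, Aldoc and Tpi1 did not pass the test on either side, with left log2 fold changes from -0.07 (Aldoc) to 0.24 (Pfkl). Among the 4 PFK-2 enzymes, which set the level of the activator fructose 2,6-bisphosphate, Pfkfb2 passed on the left, with a log2 fold change of -0.26 ± 0.07 (SE; adjusted p = 0.0368). Without the E14.5 HLHS library it was -0.20 (adjusted p = 0.179), and the call was also lost without the E17.5 HLHS library or any 1 of the 4 controls of E14.5 and E17.5 (adjusted p 0.0659 to 0.0900). On the right the 4 had log2 fold changes from -0.14 (Pfkfb2) to 0.12 (Pfkfb3), not past the test.

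In lower glycolysis the muscle isozymes fell and Pgk1 rose in the HLHS left ventricle. Eno3, the muscle enolase, was, in the left ventricle, at 321 CPM in the E13.5 control, 433 and 420.1 in the E14.5 controls and 797 and 727 in the E17.5 controls, against 208, 318 and 487 CPM in the HLHS embryos of E13.5, E14.5 and E17.5. The right ventricle had 496 CPM in the E13.5 control, 456 and 547 in the E14.5 controls and 930.4 and 787 in the E17.5 controls, against 351, 419 and 571 CPM in the HLHS embryos of E13.5, E14.5 and E17.5. On both sides each HLHS library was below its litter's controls, while the level was highest at E17.5 in both groups, so that the E17.5 HLHS library was above the younger controls. The log2 fold change was -0.56 ± 0.07 (SE; adjusted p = 0.00186) on the left, the lowest value of the 37 members there, and -0.44 ± 0.10 (SE; adjusted p = 0.0344) on the right.

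Pgam2, the muscle phosphoglycerate mutase, had, in the left ventricle, 294 CPM in the E13.5 control, 288 and 301 in the E14.5 controls and 391 and 376 in the E17.5 controls, against 218, 241 and 321 CPM in the HLHS embryos of E13.5, E14.5 and E17.5. All 3 HLHS libraries were below their litter's controls, and the log2 fold change was -0.32 ± 0.06 (SE; adjusted p = 0.00882). On the right it was -0.30 ± 0.10 (SE; adjusted p = 0.0912).

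Pgk1, the first ATP-making step, was, in the left ventricle, at 1014 CPM in the E13.5 control, 1039.7 and 977 in the E14.5 controls and 1075 and 1008 in the E17.5 controls, against 1169.6, 1416 and 1162 CPM in the HLHS embryos of E13.5, E14.5 and E17.5. The HLHS libraries were above all 5 controls, by a log2 fold change of 0.29 ± 0.08 (SE; adjusted p = 0.0338), and the right value was 0.03 ± 0.09 (SE; adjusted p = 0.880). Without the E14.5 HLHS library the left change was 0.18 (adjusted p = 0.169), and the call was also lost without the E13.5 library of either group, either E14.5 control or 1 of the E17.5 controls (adjusted p 0.0561 to 0.0901).

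Gapdh in the left ventricle was at 269 CPM in the E13.5 control, 166 and 166 in the E14.5 controls and 178 and 170.1 in the E17.5 controls, against 246, 206 and 165 CPM in the HLHS embryos of E13.5, E14.5 and E17.5. It did not pass the test, with log2 fold changes of 0.05 ± 0.08 (SE; adjusted p = 0.707) on the left and -0.17 ± 0.08 (SE; adjusted p = 0.267) on the right. The E13.5 litter was high in both groups. Pgam1, Eno1, Eno2 and Pkm did not pass, with left log2 fold changes from 0.07 (Eno2) to 0.31 (Pgam1).

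At the lactate step, the exporter rose in the left ventricle and the heart-type dehydrogenase fell. Slc16a3, the monocarboxylate transporter MCT4 that exports lactate, was, in the left ventricle, at 177 CPM in the E13.5 control, 132 and 135 in the E14.5 controls and 97.2 and 113 in the E17.5 controls, against 276, 337 and 111 CPM in the HLHS embryos of E13.5, E14.5 and E17.5. The HLHS embryos stood above their controls at E13.5 and E14.5, while the E17.5 embryo lay between its 2 controls. The log2 fold change was 0.73 ± 0.18 (SE; adjusted p = 0.0302) on the left and 0.13 ± 0.13 (SE; adjusted p = 0.585) on the right. Without the E14.5 HLHS library the left value was 0.33 (adjusted p = 0.142). The call was also lost without the E13.5 library of either group, either E14.5 control or 1 of the E17.5 controls (adjusted p 0.0574 to 0.0782), and by DESeq2 (adjusted p = 0.0567).

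Ldhb, whose subunit favours lactate use, was, in the left ventricle, at 763 CPM in the E13.5 control, 752 and 739 in the E14.5 controls and 993 and 937 in the E17.5 controls, against 544, 521 and 765 CPM in the HLHS embryos of E13.5, E14.5 and E17.5. Each HLHS library was below its litter's controls, with a log2 fold change of -0.44 ± 0.06 (SE; adjusted p = 0.00312). On the right it was -0.31 ± 0.10 (SE; adjusted p = 0.0871). Ldha, whose subunit favours lactate production, had, in the left ventricle, 1386 CPM in the E13.5 control, 1315 and 1242 in the E14.5 controls and 1466 and 1342 in the E17.5 controls, against 1508, 1890.4 and 1416 CPM in the HLHS embryos of E13.5, E14.5 and E17.5. The HLHS library was above its controls at E13.5 and E14.5 and between them at E17.5, and the log2 fold change was 0.25 ± 0.10 (SE; adjusted p = 0.133) on the left and 0.01 ± 0.10 (SE; adjusted p = 0.976) on the right. Slc16a1, the MCT1 transporter of lactate uptake, did not pass, with -0.08 on the left and -0.16 on the right.

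The pyruvate dehydrogenase kinases switch off the enzyme that feeds pyruvate to the mitochondrion. Pdk1, the hypoxia-responsive form, was, in the left ventricle, at 310.3 CPM in the E13.5 control, 371 and 352 in the E14.5 controls and 435 and 447 in the E17.5 controls, against 358, 467 and 504 CPM in the HLHS embryos of E13.5, E14.5 and E17.5. All 3 HLHS libraries were above their litter's controls, and the log2 fold change was 0.26 ± 0.06 (SE; adjusted p = 0.0238), beside -0.10 ± 0.08 (SE; adjusted p = 0.478) on the right. Without the E14.5 HLHS library the left value was 0.20 (adjusted p = 0.127), and without either E14.5 control or 1 of the E17.5 controls the adjusted p was 0.0541 to 0.0706. Pdk2, a form common in heart, and Pdk3 did not pass, with left log2 fold changes of -0.38 and 0.23.

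Of the 6 glycogen members, 1 was lower on the left and 3 on the right. Pygm, which releases glucose from glycogen in muscle, was, in the left ventricle, at 374 CPM in the E13.5 control, 366 and 347 in the E14.5 controls and 625 and 626 in the E17.5 controls, against 248, 255 and 461 CPM in the HLHS embryos of E13.5, E14.5 and E17.5. In the right ventricle it was at 498 CPM in the E13.5 control, 451 and 461 in the E14.5 controls and 645 and 656 in the E17.5 controls, against 378, 379 and 486 CPM in the HLHS embryos of E13.5, E14.5 and E17.5. HLHS libraries lay below their litter's controls on both sides. The log2 fold change was -0.50 ± 0.06 (SE; adjusted p = 0.00157) on the left and -0.36 ± 0.07 (SE; adjusted p = 0.0188) on the right.

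Gbe1, which adds the branches of glycogen, was called on the right. Right ventricles had 75.2 CPM in the E13.5 control, 78.2 and 89.4 in the E14.5 controls and 119.9 and 114 in the E17.5 controls, against 57.8, 64.7 and 100.1 CPM in the HLHS embryos of E13.5, E14.5 and E17.5. Gys1, the muscle glycogen synthase, had 321 CPM in the E13.5 control, 271 and 303 in the E14.5 controls and 347 and 334 in the E17.5 controls, against 268, 217 and 298 CPM in the HLHS embryos of E13.5, E14.5 and E17.5. Both were below the controls in each right-side litter, with log2 fold changes of -0.32 ± 0.07 (SE; adjusted p = 0.0272) and -0.29 ± 0.07 (SE; adjusted p = 0.0451). On the left the values were -0.15 ± 0.09 (SE; adjusted p = 0.285) for Gbe1 and 0.02 ± 0.06 (SE; adjusted p = 0.819) for Gys1. The brain and liver phosphorylases Pygb and Pygl and the phosphoglucomutase Pgm1 did not pass on either side.

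**Figure D2:**
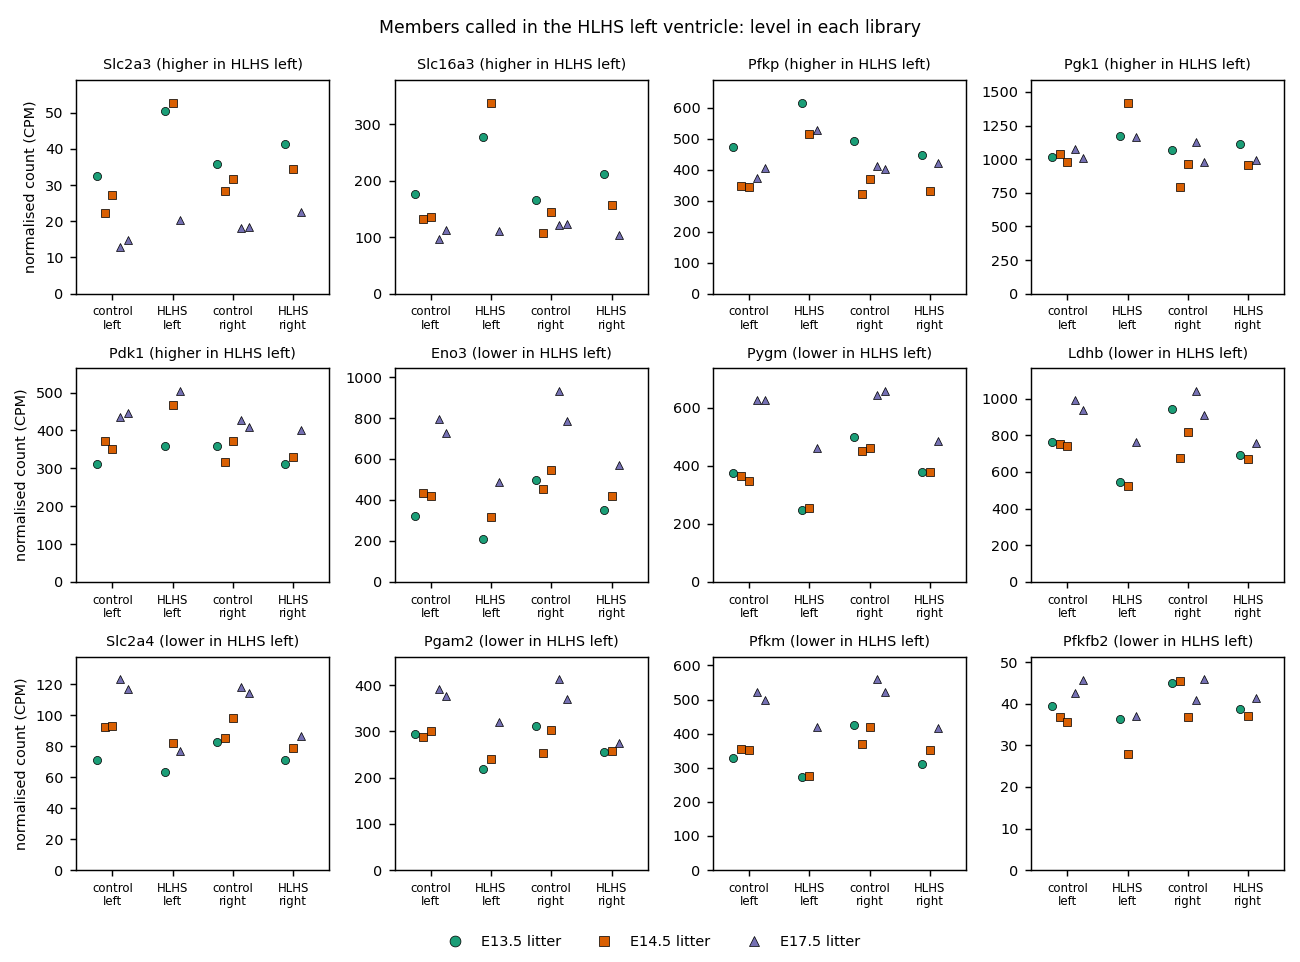
TMM-normalised level (CPM, axes from 0) of the 12 members called in the HLHS left ventricle, with 1 point per library, groups on the x axis and litters by symbol. Within a litter the 3 HLHS left points of Slc2a3, Pfkp, Pgk1 and Pdk1 lie above the control left points and those of Eno3, Pygm, Ldhb and Pfkm below, while Eno3 and Pygm are highest at E17.5 in each group.

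Ratios of sister isozymes, which do not depend on how libraries are scaled, were lower in HLHS for most pairs. Eno3 counts over Eno1 counts in the left ventricle were 0.276 in the E13.5 control, 0.443 and 0.442 in the E14.5 controls and 0.854 and 0.819 in the E17.5 controls, against 0.191, 0.256 and 0.445 in the HLHS embryos of those stages. On the right they were 0.379 in the E13.5 control, 0.563 and 0.565 in the E14.5 controls and 0.945 and 0.922 in the E17.5 controls, against 0.256, 0.441 and 0.630 in the HLHS embryos of those stages. The ratio was below each litter's controls on both sides. Ldhb over Ldha in the left ventricle was 0.551 in the E13.5 control, 0.572 and 0.595 in the E14.5 controls and 0.677 and 0.698 in the E17.5 controls, against 0.361, 0.275 and 0.540 in the HLHS embryos of those stages. Here every HLHS ratio was below all 5 control ratios. Pgam2 over Pgam1 in the left ventricle was 0.750 in the E13.5 control, 0.844 and 0.918 in the E14.5 controls and 1.23 and 1.21 in the E17.5 controls, against 0.445, 0.473 and 1.03 in the HLHS embryos of those stages. For 6 pairs (Eno3 over Eno1, Pgam2 over Pgam1, Ldhb over Ldha, Slc2a4 over Slc2a1, Pfkm over Pfkl and Pygm over Pygb) the HLHS ratio was below all littermate controls in 3 of 3 litters on each side. Pdk2 over Pdk1 was below in 3 litters on the left and 2 on the right, and Hk1 over Hk2 in 2 and 1. The gap was narrow for Slc2a4 over Slc2a1 in the E14.5 right ventricle, at 0.443 in HLHS beside 0.448 and 0.510 in the controls. The ratios are a description of values already tested gene by gene and carry no test of their own. The share of other gene pairs below their controls was not computed.

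**Figure D3:**
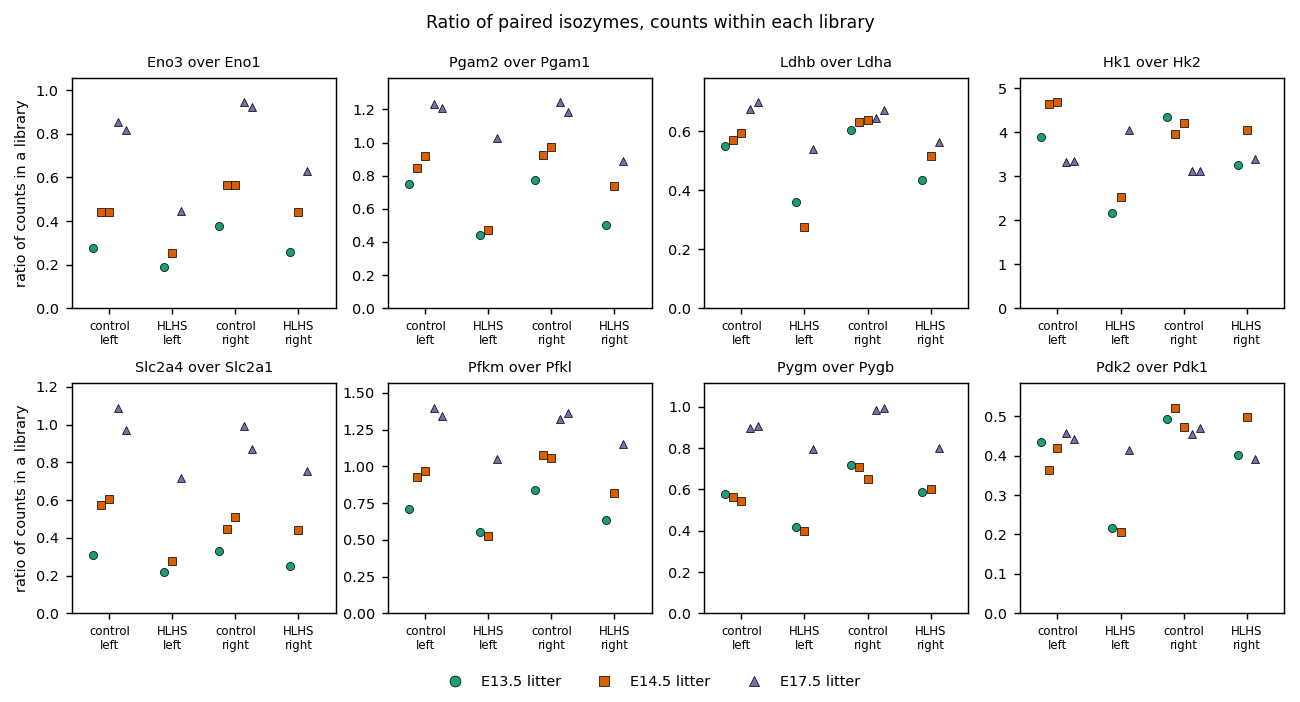
Ratio of the counts of 2 isozymes in each library (y axis from 0) for 8 pairs, by group, with litters as symbols. In 6 of the 8 pairs each HLHS point lies below the control points of the same litter and side, for example Ldhb over Ldha at 0.275 in the E14.5 HLHS left ventricle against 0.572 and 0.595 in its controls.

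Whether the HLHS effect differed between the ventricles was tested within embryos. By edgeR, with the embryo as a block over the 16 libraries, no member was called, 0 higher and 0 lower, beside 0% and 0.0182% of 16508 genes. At an unadjusted p under 0.05, 9 members had a higher and 0 a lower effect on the left, and DESeq2 called 1 and limma-voom 0. The median member difference was 0.12. Without the E17.5 HLHS embryo 3 were called higher and 1 lower. Members called on one side alone, such as Slc16a3 and Pdk1 on the left or Gbe1 and Gys1 on the right, are therefore not shown to differ between the sides.

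The nearest to the threshold was Pfkp. Its log2 level on the left minus that on the right was -0.05, 0.11, -0.11, -0.14 and 0.01 in the 5 control embryos, and 0.46, 0.64 and 0.33 in the HLHS embryos of E13.5, E14.5 and E17.5. The 3 HLHS differences were above all 5 control differences, and the left minus right effect was 0.51 ± 0.10 (SE; adjusted p = 0.0947). For Slc2a3 the differences were -0.14, -0.35, -0.22, -0.51 and -0.31 in the 5 control embryos, and 0.29, 0.61 and -0.15 in the HLHS embryos of E13.5, E14.5 and E17.5. The E13.5 and E14.5 HLHS values were above all controls and the E17.5 value lay within them. The left minus right effect was 0.57 ± 0.15 (SE; adjusted p = 0.215). Hk2 had differences of 0.44, 0.78 and -0.20 in the HLHS embryos of E13.5, E14.5 and E17.5, beside -0.31 to 0.12 in the controls, and Slc2a1 had 0.03, 0.74 and -0.09, beside -0.34 to -0.07. For both genes the E13.5 and E14.5 embryos were above all controls and the E17.5 embryo was within them. The lower muscle isozymes had left minus right effects near 0 or slightly below, at -0.01 for Pfkm, -0.04 for Pgam2, -0.08 for Slc2a4, -0.17 for Pygm and -0.18 for Eno3, none past the test.

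**Figure D4:**
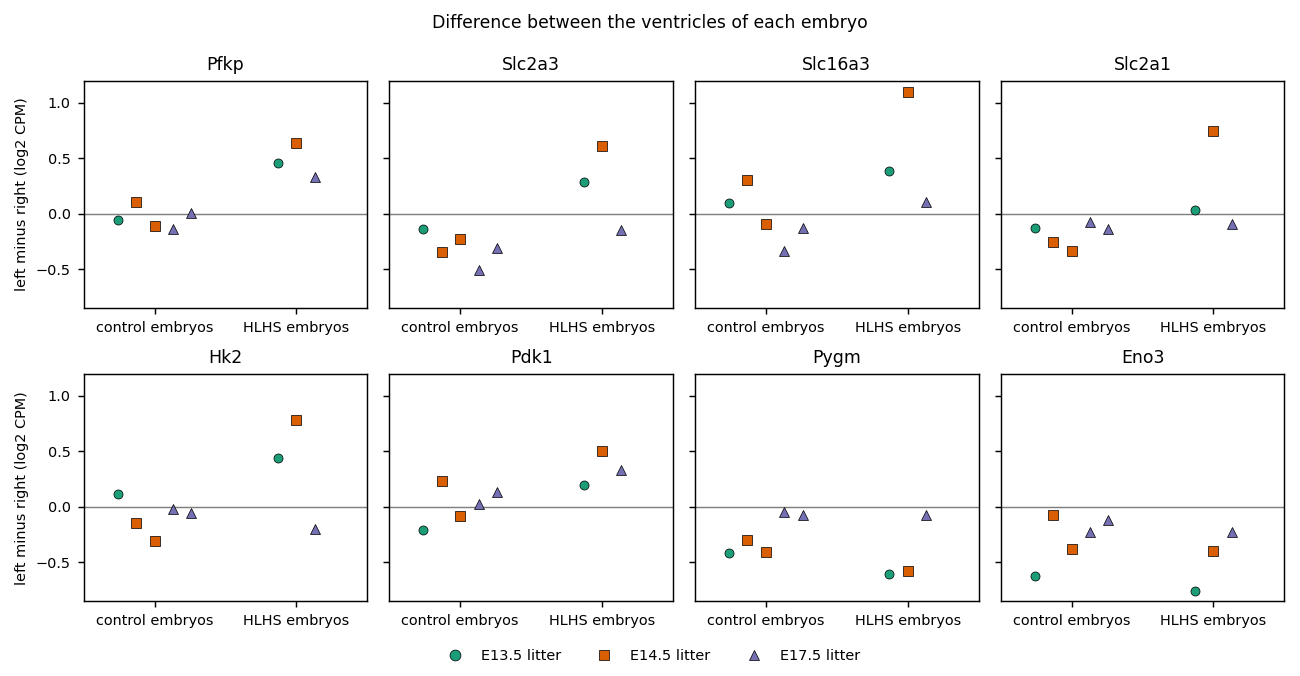
Left minus right difference in log2 CPM within each embryo for 8 members, with control embryos and HLHS embryos on the x axis and litters by symbol. For Pfkp the 3 HLHS points (0.46, 0.64 and 0.33) lie above all 5 control points, whereas for Pygm the 2 sets overlap.

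Between the ventricles of the control embryos 2 members passed the test. Slc2a3 was lower in the left ventricle in 5 of 5 embryos, at a log2 difference of -0.30 ± 0.06 (SE; adjusted p = 0.0230). Slc16a1 had 183, 287, 284, 318 and 333 CPM in the left ventricles of the E13.5, the 2 E14.5 and the 2 E17.5 controls and 139.8, 200.01, 236, 311 and 287 CPM in the right ventricles of the same embryos. It was higher on the left in 5 of 5, at a log2 difference of 0.28 ± 0.07 (SE; adjusted p = 0.0346). This was 1 of 37 in each direction, beside 2.09% of 16238 genes higher and 4.01% lower in the left ventricle by edgeR with the embryo as a block. Leaving out either E14.5 control or 1 of the E17.5 controls ended both calls (adjusted p 0.0691 to 0.0914), leaving out the E13.5 control ended that of Slc16a1 (0.0933), and leaving out the other E17.5 control ended that of Slc2a3 (0.0558). Eno3 and Pygm were lower in the left ventricle in 5 of 5 embryos without passing, at -0.28 ± 0.08 (SE; adjusted p = 0.0606) and -0.25 ± 0.07 (SE; adjusted p = 0.0595).

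In the HLHS embryos, 1 of 37 members was higher on the left, beside 1.15% of 15771 genes. It was Pfkp, at 0.50 ± 0.10 (SE; adjusted p = 0.0351) and in 3 of 3 embryos; without the E14.5 embryo it was 0.41 (adjusted p = 0.164). By edgeR 0 members were lower on the left, beside 2.89% of genes, with 3 lower at an unadjusted p under 0.05, 2 by DESeq2 and 0 by limma-voom. Without the E17.5 embryo 6 members were higher and 4 lower. In the controls Pfkp was at a left minus right difference of -0.04 ± 0.05 (SE; adjusted p = 0.727).

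Many members also changed with the age of control hearts. Between E14.5 and E17.5, in control embryos with both ventricles summed (2 embryos against 2), 13 of 37 members rose and 3 fell by edgeR, beside 15.8% and 14.1% of 16823 genes. The median member change was 0.21 on the log2 scale, beside -0.01 for all genes. The rise included the muscle forms Eno3, at 0.83 ± 0.10 (SE; adjusted p = 0.00230), Pygm at 0.67 ± 0.07 (SE; adjusted p = 0.00192), Pfkm at 0.51 ± 0.08 (SE; adjusted p = 0.00532), Pgam2 at 0.45 ± 0.09 (SE; adjusted p = 0.0118) and Slc2a4 at 0.37 ± 0.06 (SE; adjusted p = 0.00795). Hk2 rose by 0.65 ± 0.06 (SE; adjusted p = 0.00124) and Gbe1 by 0.56 ± 0.06 (SE; adjusted p = 0.00203). Ldhb, Pdk2, Gys1, Slc16a1, Pdk1 and Pygl rose by 0.24 to 0.39. The fall was in Eno2, at -1.09 ± 0.15 (SE; adjusted p = 0.00405), and in the transporters Slc2a3, at -0.75 ± 0.10 (SE; adjusted p = 0.00300), and Slc2a1, at -0.51 ± 0.06 (SE; adjusted p = 0.00209).

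Eno2, the neuronal enolase, showed the fall in every pair: control left ventricles had 7.29 and 5.99 CPM at E14.5 and 3.4 and 2.52 CPM at E17.5. Right ventricles had 8.51 and 6.33 CPM, then 3.09 and 4.11 CPM. Leaving out 1 of the E14.5 controls left 7 members higher and leaving out 1 of the E17.5 controls left 8, and the right ventricles alone gave 8. Ldhb and Pdk1 were among the calls that ended there (adjusted p 0.0684 to 0.151), and that of Pdk1 also ended without the other E14.5 control (0.0646). Each stage is 1 litter, so age and litter cannot be told apart. The stage comparison shares its control libraries with the HLHS comparisons, so their values are set side by side without a test. The 7 members lower in the HLHS left ventricle had stage changes of 0.83 (Eno3), 0.67 (Pygm), 0.39 (Ldhb), 0.37 (Slc2a4), 0.45 (Pgam2), 0.51 (Pfkm) and 0.19 (Pfkfb2, not past the test). The 5 higher members had -0.75 (Slc2a3), -0.17 (Slc16a3), 0.22 (Pfkp), 0.17 (Pgk1) and 0.29 (Pdk1), of which Slc2a3 and Pdk1 passed.

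The difference between HLHS and control varied in size between litters for some members of the left ventricle. The E14.5 HLHS left ventricle held the largest rises, with log2 differences from the mean of its 2 controls of 1.34 for Slc16a3, 1.10 for Slc2a3, 0.93 for Slc2a1 and 0.76 for Hk2. At E17.5 the same differences were 0.09, 0.56, -0.12 and -0.51. In the left ventricle 18 members were above the control at E13.5, 22 above both controls at E14.5 and 14 above both at E17.5, beside 53.4%, 40.5% and 39.4% of 16209 genes. Below them were 19, 13 and 15 members, beside 46.5%, 42.3% and 38.9% of genes. On the right side 24 members were below the control at E13.5, 16 below both at E14.5 and 27 below both at E17.5, beside 47.5%, 36.4% and 36.3% of genes. Above them were 13, 7 and 5 members, beside 52.5%, 37.7% and 40.5%. The E14.5 HLHS left library also had the highest erythroid sum (1345 CPM) and the lowest endothelial sum (1146 CPM) of all 16 libraries. It had the highest smooth muscle sum (2907 CPM, beside 1163 to 1497 CPM in the 10 control libraries) and the highest epicardial sum (217 CPM) as well. Of the 5 epicardial markers only 1, Krt19, had a fold change above 0 in the HLHS left ventricle, and their median log2 value was -0.09. The part of these cell types in the values of this library was not tested.

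A comparison added after these values were seen took the HLHS effect at E17.5 minus that at E14.5 in the left ventricle. It sets 1 HLHS embryo against 1, so a difference between the litters and one between these single embryos cannot be told apart. The spread comes from the control pairs alone, and the HLHS embryos are assumed to vary as they do. By edgeR 4 of 37 members had a lower value at E17.5 and 1 a higher one, beside 1.05% and 0.827% of 16559 genes. The lower ones were Hk2, at -1.27 ± 0.10 (SE; adjusted p = 0.00706), Slc16a3, at -1.25 ± 0.12 (SE; adjusted p = 0.00776), Slc2a1, at -1.05 ± 0.10 (SE; adjusted p = 0.00721), and Pgam1, at -0.61 ± 0.11 (SE; adjusted p = 0.0431). The higher one was Pdk2, at 0.63 ± 0.10 (SE; adjusted p = 0.0307): its left level was 135 CPM in the E13.5 control, 135 and 148 in the E14.5 controls and 199 and 197 in the E17.5 controls, against 77.3, 96.1 and 208 CPM in the HLHS embryos of E13.5, E14.5 and E17.5. Pdk2 was thus below the controls in the younger litters and slightly above them at E17.5. Pgam1, the mutase of most tissues, was at 393 CPM in the E13.5 control, 341 and 329 in the E14.5 controls and 317 and 312 in the E17.5 controls, against 490.1, 509 and 312 CPM in the HLHS embryos of E13.5, E14.5 and E17.5, so that the HLHS library was above its controls at E13.5 and E14.5. Without 1 of the E17.5 controls Pdk2 (adjusted p = 0.0553) and Pgam1 (0.0619) were no longer called, nor was Pgam1 without 1 of the E14.5 controls (0.0916). In the right ventricle the same comparison called 0 members in either direction, beside 0% and 0% of 16700 genes, with 0 higher and 3 lower at an unadjusted p under 0.05 and 0 by DESeq2 and limma-voom.

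**Figure D5:**
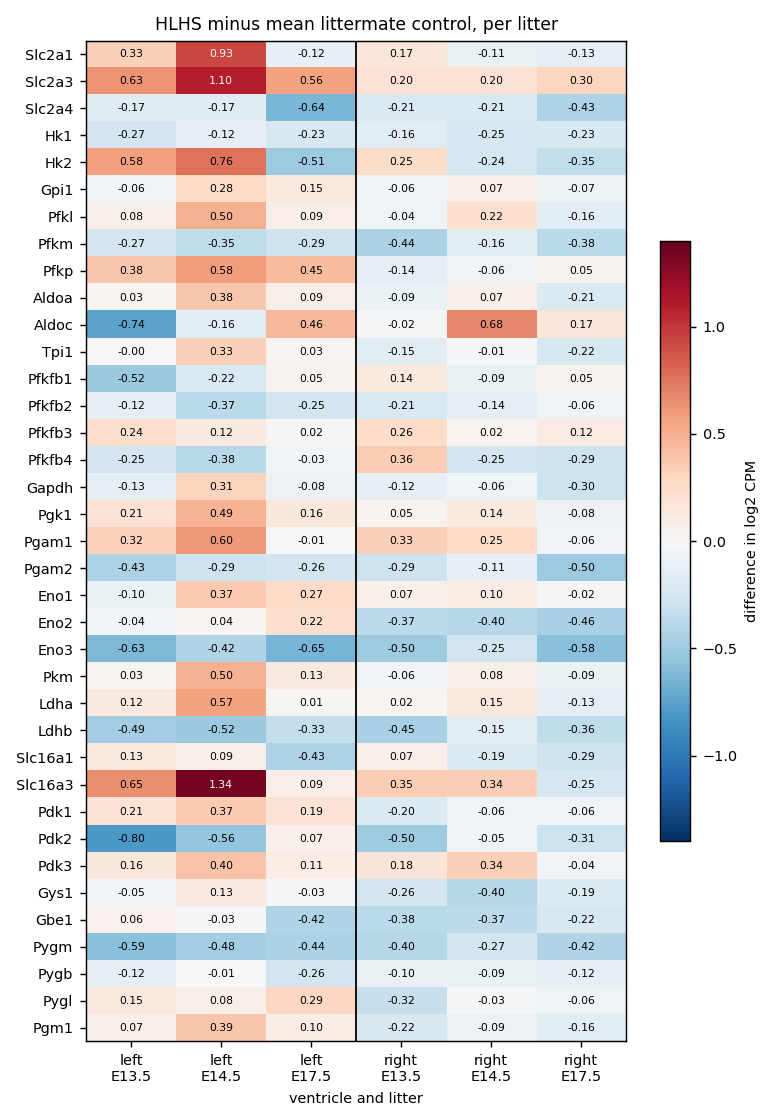
Difference in log2 CPM between the HLHS embryo and the mean of its littermate controls for each member (rows), by ventricle and litter (columns); red is higher and blue lower in HLHS. The left E14.5 column holds the highest values, up to 1.34 for Slc16a3. Eno3, Pygm, Ldhb, Pfkm, Pgam2, Slc2a4, Hk1, Pfkfb2 and Pygb are negative in all 6 columns, Pygb by only -0.005 in the left E14.5 column. Slc2a3 and Pfkfb3 are positive in all 6, Pfkfb3 by only 0.02 in the left E17.5 column. The 6 columns come from 3 HLHS embryos, and the share of all genes with 1 sign in all 6 was not computed.

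Of the genes that work beside the members, more were lower than higher in the HLHS left ventricle. Of 80 listed genes of the surrounding pathways, 72 were tested, and 3 were higher and 20 lower, beside 6.17% and 6.61% of all genes. On the right 4 were higher and 3 lower of 73, beside 3.56% and 3.05%. The list's median log2 fold change was -0.04 on the left and -0.05 on the right. Of 10 genes of pyruvate entry, 6 were lower on the left, led by the mitochondrial pyruvate carrier Mpc2 at -0.46 ± 0.07 (SE; adjusted p = 0.00432) and the pyruvate dehydrogenase subunits Pdhb at -0.35, Pdha1 at -0.34 and Dld at -0.34. Of 12 genes of the NADH shuttles and lactate transport, 8 were lower, among them Gpd1, the cytosolic glycerol phosphate dehydrogenase, at -0.65 ± 0.10 (SE; adjusted p = 0.00503), and the malate-aspartate genes Got1 at -0.46, Mdh1 at -0.32 and Slc25a12 at -0.29. On the right Mpc2 did not pass, at -0.39 ± 0.11 (SE; adjusted p = 0.0668), and of the 12 shuttle and lactate genes 1 was lower, Gpd1 at -0.61 ± 0.12 (SE; adjusted p = 0.0182), and 1 higher, Emb at 0.82.

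Glycogen handling outside the members also moved. Of 18 genes, 4 were lower on the left, among them the phosphorylase kinase subunit Phkg1 at -1.35 ± 0.20 (SE; adjusted p = 0.00428) and the glycogen-targeting phosphatase subunits Ppp1r3a at -0.57 and Ppp1r3b at -0.39. Glycogenin, Gyg, which starts the glycogen chain, was higher, at 0.39 ± 0.06 (SE; adjusted p = 0.00573). On the right 2 of the 18 were lower, among them Ppp1r3a at -0.43. In the pentose phosphate branch, G6pdx, its first enzyme, was higher on both sides, at 0.49 ± 0.07 (SE; adjusted p = 0.00428) and 0.49 ± 0.08 (SE; adjusted p = 0.0105), and Tkt was higher on the right, at 0.38. Of 13 other isozymes tested on the left, Slc2a10 was lower at -0.48, and of 14 on the right Hk3 was higher at 0.96. Among 11 regulators, Mycn was higher and Mlxipl, the glucose-sensing factor ChREBP, lower on the left, at 0.65 and -0.59.

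Some known hypoxia targets outside the members were higher in the HLHS left ventricle. Of 16 tested, 4 were higher and 0 lower, beside 6.17% and 6.61% of all genes. The higher ones were the mitophagy receptors Bnip3, at 0.93 ± 0.07 (SE; adjusted p = 0.000211), and Bnip3l, at 0.46, the lysyl oxidase Loxl2, at 0.80, and Mxi1, at 0.27. Of the 16, 13 had a log2 fold change above 0. Below 0 were Adm, at -0.30 (unadjusted p = 0.0414 by edgeR), Vegfa, at -0.11, and Ndrg1, at -0.09. The summed level of the 16 was 1941 to 2274 CPM in the 3 HLHS left ventricles and 1444 to 1688 CPM in the 5 controls, with no overlap. Much of the gap lay in Loxl2, at a mean of 574 CPM in HLHS and 308 CPM in controls, and Bnip3, at 352 and 188 CPM. On the right Loxl2 was higher, at 0.43, and Vegfa lower, at -0.29, and the sums of 1653 to 1784 CPM and 1452 to 1717 CPM overlapped. Bnip3l is also a gene of maturing red cells, and the erythroid markers were higher on the same side. The part of those cells in these values was not tested.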

How the data were processed

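Total RNA from the left and right ventricles of 8 mouse embryos was made into 16 libraries with a TruSeq RNA kit, per the labels' protocols. The authors deposited 1 table of whole-number counts per Ensembl gene. The submitters' processing notes name TopHat2 2.0.9, Picard, HTSeq 0.5.4p5, edgeR 3.4.2 and the mouse build mm9. The annotation, the strand setting and the treatment of duplicates and of reads that fit several genes were not given in the sources used here. Gene symbols were attached by Ensembl identifier, which matched 32919 of 37991 genes, and all columns were mapped to samples by their names, with 0 left over. The members and gene lists were chosen with earlier results of these data known.

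Counts were tested with edgeR 4.0.16 in R 4.3.3 (quasi-likelihood, TMM scaling, edgeR's expression filter at a count of 10 and a total of 15), with Benjamini-Hochberg adjustment over all genes tested and a threshold of 0.05. The HLHS effect was fitted per ventricle with a term for stage, equal to litter. Left against right, and the HLHS effect on the left minus that on the right, were fitted with the embryo as a block. E17.5 against E14.5 was fitted in controls with both ventricles summed. The difference of the HLHS effect between litters was added after seeing the data. Values of single libraries are given for members past the threshold, at most the 10 with the largest change in a comparison. They are also given for Slc2a1, Slc2a4, Hk1, Hk2, Gapdh, Ldha, Ldhb and Pdk1. For Slc2a1, Hk1, Hk2, Gapdh, Pgk1, Pgam1, Pgam2, Ldha, Ldhb, Slc16a3, Pdk1 and Pdk2 these are mainly left-ventricle values, and the right is mainly given by fold change. For Gbe1 and Gys1 they are right-ventricle values, and for Slc16a1 and Eno2 values of control libraries. Other members are given by range or count. Genes outside the members are named only from the lists, where they passed in an HLHS comparison, at most 4 per list in each. 1 gene counted in the glycogen handling list is not reported here. Eno1, Pdk2, the hypoxia targets Adm and Ndrg1 and the markers named beside the results were named after their values were seen.

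The titles tie both ventricles to 1 embryo, and the differences between control embryos of a litter correlated between left and right with r = 0.340 at E14.5 and 0.313 at E17.5 over 16209 genes. Among 26 pairs of libraries of 1 group, none agreed within sampling noise (lowest chi-square per degree of freedom 7.01). The labels do not say whether any 2 embryos share more than a litter, so p-values measure the spread between these embryos. Sex, read from Xist and Ddx3y, was the same in both ventricles of 8 of 8 embryos, and 2 of 3 HLHS and 2 of 5 control embryos were female. Alternatives were DESeq2 1.42.0 and limma 3.58.1 (voom), other filters and scaling, globins left out, no stage or embryo term, all libraries in 1 fit, left-out embryos or litters, and a sex term, added after seeing the data. Shared 50-base stretches and exon lengths came from GENCODE M21, promoters from RefSeq GRCm38.p6. The scripts were tested on simulated data with known changes.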

Additional observations from a re-analysis of the deposited data

Results flagged for a closer look

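In groups of 5 control libraries, a single library far from the others was found in 5 of 74 groups of member values. Chance gives about 1 in 20 where the libraries are alike, but these 5 span 3 stages, so that share does not apply here. All 5 were the E13.5 control, the only control of its stage, so stage and library cannot be told apart. The other controls come in pairs of 1 stage, so the design itself favours the E13.5 library as the one that stands apart. In its left ventricle Gapdh was at 268.6 CPM, beside 166 to 178 CPM in the other 4, and in its right ventricle at 296 CPM, beside 149 to 189 CPM. Pfkfb3, a PFK-2 enzyme induced by hypoxia and growth signals, was at 59.8 CPM in its left ventricle, beside 24.6 to 29.1 CPM. Pfkl was at 464 CPM, beside 361 to 382 CPM, and Pfkfb1 at 6.65 CPM, beside 4.13 to 4.82 CPM.

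For 5 members the left-ventricle difference between HLHS and control was not the same in the E17.5 and the E14.5 embryo, by an edgeR comparison chosen after these values were seen. It sets 1 HLHS embryo against 1, so litter and single embryo cannot be told apart. The log2 difference was -1.27 for Hk2, -1.25 for Slc16a3, -1.05 for Slc2a1 and -0.61 for Pgam1, and 0.63 for Pdk2.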

How the results depend on the processing

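Among the members called in a comparison and the 8 always named, none reversed a call under the alternatives run. Genes outside the members were not run under them. Some of the 8 always named gained a call that the main fit did not give, in at least 1 alternative. These were Slc2a1, Hk1, Hk2 and Ldha in the HLHS left ventricle, and Hk1 and Ldhb in the right. Hk2 gained one for left minus right, and Hk2 and Pdk1 between the ventricles of HLHS embryos. Hk1 and Ldha gained one between stages in controls, and Slc2a4, Gapdh and Ldha for E17.5 minus E14.5 on the left. Without a replicate block (the stage term), 0 members were higher and 0 lower in the HLHS left ventricle and 0 lower in the right, and without the embryo block 2 were lower on the left in controls. The DESeq2 test called 8 higher in the HLHS left ventricle, 10 lower in the right, 1 higher for left minus right, 3 lower on the left in controls, 2 higher and 2 lower on the left in HLHS, and 8 lower for E17.5 minus E14.5 on the left. With no count filter these were 11 higher in the HLHS left ventricle, 2 higher for left minus right, 3 lower on the left in controls, 4 higher and 3 lower in HLHS, and 2 higher and 11 lower for E17.5 minus E14.5. In the HLHS right ventricle 0 were lower without the E13.5 litter and 1 with a sex term. Between stages, left ventricles alone gave 5 lower and right ventricles alone 8 higher. Leaving out 1 embryo at a time gave 2 to 11 higher and 5 to 7 lower in the HLHS left ventricle, 0 to 9 lower in the right, and 0 to 3 higher and 0 to 1 lower for left minus right. It gave 0 to 1 higher and 0 to 1 lower on the left in controls, and 0 to 6 higher and 0 to 4 lower in HLHS. Between stages it gave 7 to 18 higher and 3 to 4 lower, and for E17.5 minus E14.5 on the left 0 to 2 higher and 3 to 6 lower, and on the right 0 to 1 lower. The sex term and the E17.5 minus E14.5 comparison were chosen after seeing the data. Each HLHS value rests on 3 embryos, 1 per litter, and the counts of members that share stretches with other genes are limited by a counting rule that is not given in the sources used here.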
